A study of Homo sapiens with 18 samples.

Results

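The comparison described here is that of time in culture without drug: 3 vehicle cultures of C4-2B cells sampled at 7 days (VEH_7d) were set against 3 vehicle cultures sampled at 2 days (VEH_2d), which are 6 of the 18 libraries of the series. Genes were taken when both FPKM tables held values for them and the mean FPKM reached at least 1 in one of the 2 groups. FPKM, a count of fragments divided by gene length and by library size, is a level that can be set side by side between genes. Of 26415 genes, which leaves out 28 names that had turned into calendar dates, 12102 reached that level, and removing 237 pseudogenes left 11865. The choice used levels and not the difference itself, but a gene low in one group was kept when the other group alone reached 1 FPKM.

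C4-2B is an established human prostate cancer cell line that grows without added androgen, and all cultures were of this line, labelled wild type and kept in RPMI medium with fetal bovine serum. The vehicle groups received the solvent DMSO alone. The other groups of the series received 0.1 μM VIC-1911, an inhibitor of the mitotic kinase AURKA, for 2 or 7 days (VIC_2d and VIC_7d), or, for 7 days, the PARP inhibitor olaparib at 1 μM or a combination of both drugs. The 2-day and 7-day libraries were sequenced and tabulated as separate sets, so days in culture and the set a library belongs to cannot be told apart in any value below. Seeding density, medium changes and confluence at collection are not given in the sources used here, and bulk RNA cannot separate fewer cells in a state from less RNA of that state per cell.

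Cells that divide make the RNAs of DNA replication in S phase and then those of the spindle and the mitotic kinases in G2 and M phase, and both groups of RNA fall when fewer cells are cycling. Luminal prostate cells are known instead for secreted kallikreins and other androgen-regulated genes. ATF4, a transcription factor that is translated when amino acids are short or the endoplasmic reticulum (ER) is stressed, raises genes for amino acid uptake and synthesis.

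Between 3245273 and 4545256 reads were counted per 2-day vehicle library and between 6911220 and 17538796 per 7-day library. The first principal component of the log2 levels held 62.5% of the variance and separated the days, and the second, with 15.2%, set VEH_2d replicate 1 (36.0) apart from the other libraries (-20.4 to 5.33). A common rescaling multiplied or divided each library's FPKM by a factor between 0.967 and 1.04. Of 16 luminal markers 14 were at 10 FPKM or more in all 6 libraries, with KLK3 at 1400 or more, and the lowest value was 1.9, for ACPP. Of 12 stromal, 13 immune and 8 endothelial marker genes, only COL1A1 and CD68 had a mean of at least 1 FPKM in a group. DCN, PTPRC, PECAM1, CDH5, KRT5 and TP63 were at 0 in all 6 libraries.

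At 7 days 729 genes were called higher than at 2 days, which is 6.14% of the genes tested, and 413 were called lower, which is 3.48%. A gene was called when limma, fitted to log2(FPKM + 0.1) of all 11865 genes, gave a Benjamini-Hochberg adjusted p under 0.05 and the fold change was at least 2, and every log2 difference below is on that scale, as 7 days minus 2 days, with its standard error (SE) and 3 libraries per group. Without a limit on the fold, 7247 genes (61.1%) had an adjusted p under 0.05, 3757 of them as higher and 3490 as lower. The 3 libraries of a group did not overlap those of the other in 68.1% of all genes. Non-overlap and a small p were therefore the rule in these libraries. The genes called higher comprised 564 of the 10885 protein-coding genes kept, 68 of 444 long non-coding RNAs and 58 of 341 genes of short RNAs. Those called lower comprised 389, 11 and 6. Non-coding genes were thus called higher more often for their number than protein-coding genes. The median log2 difference of all genes was 0.02.

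**Figure D1:**
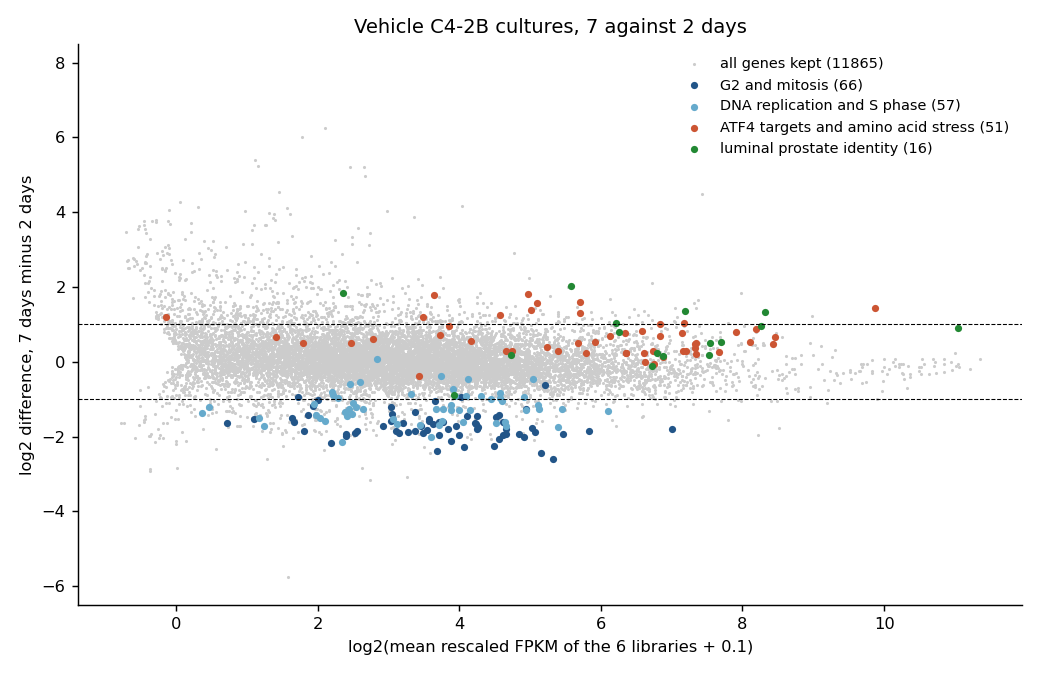
Difference between 7 and 2 days (log2, vertical axis) against the mean level of each gene (log2 of rescaled FPKM plus 0.1, horizontal axis) in vehicle libraries, with dashed lines at a 2-fold change. The 66 genes of G2 and mitosis (dark blue) and 57 of DNA replication (light blue) lie below 0 with 1 exception, POLE, and 48 of the 51 ATF4 targets (red) lie above 0.

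Mitotic genes were lower at 7 days as a group. All 66 genes on the G2 and mitosis list had no overlap between the groups and an adjusted p under 0.05, 63 of them were called lower and none higher, and their median log2 difference was -1.76 (lowest -2.60, highest -0.63). The 3 that missed the 2-fold limit were BUB3, CDC25C and CKAP2. CDK1, the kinase that drives entry into mitosis, was at 69.7, 69.7 and 67.2 FPKM at 2 days and at 12.9, 9.51 and 11.6 FPKM at 7 days. Its 2-day libraries were nearly equal and each was above 5 times the highest 7-day value, with a log2 difference of -2.60 ± 0.10 (SE, adjusted p = 1.9e-06).

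PTTG1, or securin, which holds back the separation of sister chromatids until anaphase, was at 61.2, 62.0 and 56.4 FPKM at 2 days and 16.2, 9.23 and 8.5 at 7 days. CCNA2, the cyclin of S and G2 phase, was at 21.6, 22.2 and 20.7 FPKM against 4.80, 3.29 and 4.23. HMMR, a spindle-associated protein, was at 26.2, 28.1 and 28.3 FPKM against 7.66, 4.99 and 4.69. In these genes VEH_7d replicate 1 was the highest of the 7-day libraries and still below every 2-day library. Over the whole list the summed FPKM was 1780, 1840 and 1780 at 2 days and 652, 483 and 484 at 7 days, again with VEH_7d replicate 1 above the other two 7-day cultures.

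AURKA, the kinase that VIC-1911 inhibits, was at 23.8, 24.8 and 27.3 FPKM at 2 days and 8.13, 5.63 and 5.74 at 7 days. The vehicle level of the drug's target was thus lower in every 7-day culture, by a log2 difference of -1.96 ± 0.14 (SE, adjusted p = 1.3e-05). MKI67, the proliferation marker Ki-67, was at 15.5, 13 and 15.8 FPKM against 6.53, 5.81 and 5.06, without overlap and with a log2 difference of -1.34 ± 0.11 (SE, adjusted p = 3.0e-05). PARP1, the main target of olaparib, was at 95.8, 93.3 and 94.7 FPKM against 60.9, 57.8 and 56.4, a log2 difference of -0.70 that did not reach 2-fold.

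Promoters of mitotic genes are known for the CHR element, which is bound by repressor complexes in resting cells, and for CCAAT boxes bound by NF-Y. The 250 bases before the RefSeq start (GRCh38.p14) were searched on both strands for TTTGAA or TTCGAA as the CHR letters and for CCAAT. The CHR and CCAAT letters share bases at 1 place in MKI67. The table held 57 promoters of the 66 mitotic genes. Of these, 30 (52.6%) held the CHR letters and 42 (73.7%) a CCAAT, beside 14.6% and 33.0% of all 27305 promoters in the table and 9.0% and 36.1% of the 9419 promoters of genes kept. Both stood together in 26 (45.6%) of the mitotic promoters and in 5.2% of all. Among 49 promoters of the replication list the CHR letters were in 3 (6.1%) and a CCAAT in 27 (55.1%). The 4 promoters below, of genes on the mitotic list or used as its marker, are shown because each holds both kinds of letters, which are in capitals (CCAAT or its reverse complement, and the CHR letters). A match of letters is a description of the sequence and not a measured site.
CDK1, plus strand, chr10:60778081-60778330: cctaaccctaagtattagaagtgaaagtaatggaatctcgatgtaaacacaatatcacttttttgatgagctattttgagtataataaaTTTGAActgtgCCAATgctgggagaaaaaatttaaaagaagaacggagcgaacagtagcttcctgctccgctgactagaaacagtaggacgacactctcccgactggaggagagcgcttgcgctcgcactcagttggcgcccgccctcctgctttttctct
CCNB2, plus strand, chr15:59104896-59105145: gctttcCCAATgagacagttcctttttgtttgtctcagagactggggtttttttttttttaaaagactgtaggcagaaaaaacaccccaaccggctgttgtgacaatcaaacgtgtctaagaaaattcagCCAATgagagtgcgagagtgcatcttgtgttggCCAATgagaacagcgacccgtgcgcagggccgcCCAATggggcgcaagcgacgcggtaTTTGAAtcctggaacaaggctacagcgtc
PLK1, plus strand, chr16:23678639-23678888: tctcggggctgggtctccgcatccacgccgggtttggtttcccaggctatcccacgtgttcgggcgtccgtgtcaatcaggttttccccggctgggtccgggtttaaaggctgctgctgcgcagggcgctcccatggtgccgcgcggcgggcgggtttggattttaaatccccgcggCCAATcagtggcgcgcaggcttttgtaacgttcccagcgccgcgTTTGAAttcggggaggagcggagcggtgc
MKI67, minus strand, chr10:128126424-128126673: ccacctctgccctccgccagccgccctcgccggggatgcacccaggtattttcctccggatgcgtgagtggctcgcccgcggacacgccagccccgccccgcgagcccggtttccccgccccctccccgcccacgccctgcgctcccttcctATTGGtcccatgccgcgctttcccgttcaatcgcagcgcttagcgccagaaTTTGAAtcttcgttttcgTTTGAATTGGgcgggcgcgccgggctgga
In CCNB2 and PLK1 the CHR letters began 29 bases before the start, with 4 CCAAT boxes in CCNB2 and 1 in PLK1. CCNB2, a mitotic cyclin, was at 48.3, 52.9 and 49.9 FPKM at 2 days and 19.5, 13.3 and 12.1 at 7 days, and PLK1, a kinase of spindle assembly, at 52.1, 54.9 and 51.2 against 19.6, 13.1 and 11.2. Both were called lower without overlap, by log2 differences of -1.77 (adjusted p = 4.0e-05) and -1.88 (adjusted p = 5.4e-05).

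DNA replication genes were lower as well, by less. Of 57 genes on the list 39 were called lower and none higher, 56 had an adjusted p under 0.05 in the lower direction, and the median log2 difference was -1.27. MCM10, which helps to start replication forks, was at 7.14, 8.68 and 8.70 FPKM at 2 days and 2.02, 1.58 and 1.68 at 7 days. PCNA, the sliding clamp of the DNA polymerases, was at 60.5, 70.2 and 64.0 FPKM against 22, 18.1 and 18.1, a log2 difference of -1.74 ± 0.09 (SE, adjusted p = 4.1e-06). RRM2, a subunit of ribonucleotide reductase, was at 41.2, 38.1 and 36.9 FPKM against 12.3, 11.5 and 11.4. In each of them the groups were far apart compared with the spread within a group. GINS1, part of the replicative helicase, had a log2 difference of -2.01. POLE, the leading-strand polymerase, was the exception at 7.14, 6.5 and 6.91 FPKM against 7.13, 7.87 and 6.70, with overlapping groups (log2 0.08, adjusted p = 0.44).

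Replication-dependent histone genes did not move as one group: of 33 members kept, 4 were called higher and 2 lower, and the median log2 difference was 0.06. HIST1H1C, a linker histone now named H1-2, was at 139, 150 and 138 FPKM at 2 days and 59.9, 47.6 and 47.9 at 7 days and was called lower, as was HIST1H2BJ (log2 -1.83). HIST3H2A, a core histone gene outside the main cluster, was at 19.2, 28.5 and 24.5 FPKM against 57.6, 56.5 and 66.2 and was called higher. These genes have close copies among themselves, so reads could be shared between them.

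The CDK inhibitors that hold cells out of the cycle were not raised together. On the list of 24 such and quiescence genes 1 was called higher and 2 lower, with a median of -0.07. CDKN1A, or p21, was at 54.4, 53.4 and 53.2 FPKM at 2 days and 28.9, 25.1 and 25.7 at 7 days. This was a fall in every culture, with a log2 difference of -1.01 ± 0.06 (SE, adjusted p = 6.9e-06) that lies at the 2-fold limit, and on which scaling by the sum or the upper quartile gave -0.94 and -0.98 and leaving out VEH_7d replicate 2 or 3 gave -0.97 and -0.99. CDKN1B, or p27, was at 28.5, 28.8 and 25.5 FPKM against 28.5, 29.5 and 27.7, with overlapping groups (log2 0.05, adjusted p = 0.476). TXNIP, a thioredoxin inhibitor that responds to glucose, rose from 38.1, 40.3 and 42.0 FPKM to 92.2, 102 and 111. Of 29 p53 targets 2 were called higher and 1 lower, at a median of -0.13. The 2 higher ones were GDF15, a secreted stress cytokine that is on the ATF4 list too (462, 493 and 556 FPKM against 1360, 1290 and 1460), and SESN2, an mTORC1 inhibitor on both lists (log2 1.24).

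**Figure D2:**
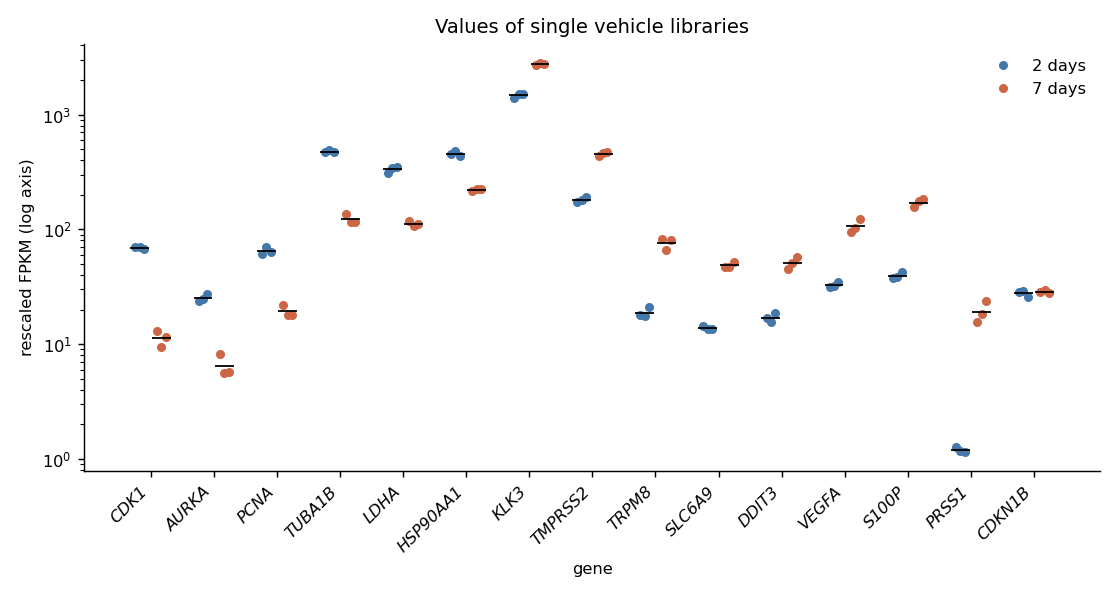
Rescaled FPKM (log axis) of 15 genes in the 3 vehicle libraries at 2 days (blue) and the 3 at 7 days (orange), with a black bar at each mean. The cell cycle genes CDK1, AURKA, PCNA and TUBA1B and the genes LDHA and HSP90AA1 are lower at 7 days, KLK3 to PRSS1 are higher, and CDKN1B differs by a log2 of 0.05.

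The cytoskeleton list was mixed, with 8 of 31 genes called lower and 4 higher (median 0.02). Of its 10 tubulins 6 were called lower and 1 higher, TUBA1A (log2 1.47 from FPKM and 0.06 from the counts), at a median of -1.13. TUBA1B, the main alpha-tubulin here, was at 468, 488 and 473 FPKM at 2 days and 136, 115 and 115 at 7 days (log2 -1.97 ± 0.07, adjusted p = 1.6e-06). TUBB was at 42.4, 45.7 and 43.3 FPKM against 16.2, 14.8 and 14.6, and TUBG1, the gamma-tubulin of centrosomes, at 62.8, 66.1 and 61.7 against 27.0, 25.4 and 25.7. None of these groups overlapped. A pair of widely used reference genes were also lower, ACTB at 1190, 1240 and 1170 FPKM against 854, 863 and 788 (log2 -0.52) and GAPDH at 1480, 1640 and 1600 against 989, 977 and 948 (log2 -0.70).

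Luminal prostate genes were mostly higher at 7 days. Of 16 genes on the list 5 were called higher and none lower. At any fold, 13 had an adjusted p under 0.05 in the higher direction and 1 in the lower. The median log2 difference was 0.66 (lowest -0.90, highest 2.02). Summed over the list, FPKM went from 2820, 2990 and 3020 to 5060, 5200 and 5170. TRPM8, an androgen-regulated ion channel, was at 17.9, 17.5 and 21 FPKM at 2 days and 83.1, 66.5 and 79.9 at 7 days, so that the lowest 7-day culture was above 3 times the highest 2-day culture (log2 2.02 ± 0.10, adjusted p = 3.7e-06). ACPP, prostatic acid phosphatase (now ACP3), was at 1.90, 2.16 and 2.46 FPKM against 7.99, 7.73 and 8.11. TMPRSS2, a membrane serine protease, was at 172, 179 and 192 FPKM against 439, 458 and 467. KLK3, which encodes PSA, was among the most abundant genes at 1400, 1520 and 1520 FPKM against 2710, 2790 and 2740, without overlap and with a log2 difference of 0.89 ± 0.04 (SE, adjusted p = 3.7e-06) under the 2-fold limit.

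The wider set of androgen-regulated genes, 4 of whose called genes are shared with the luminal list or with the transporters below, moved in both directions. Of 35 genes kept, 7 were called higher and none lower. At any fold, 17 had an adjusted p under 0.05 as higher and 13 as lower, and the median was 0.17. Among all 11865 genes 3757 were higher and 3490 lower by that measure, so both directions were common everywhere. GREB1, a hormone-regulated coactivator, was at 2.81, 2.00 and 2.36 FPKM at 2 days and 6.32, 7.68 and 6.62 at 7 days, and TSC22D3, a steroid-responsive leucine zipper gene, at 67.6, 71.7 and 72.2 against 193, 182 and 206. FKBP5, a steroid-responsive co-chaperone gene that stood at the other end, was at 31.5, 33.0 and 33.3 FPKM against 16.6, 17.7 and 17.1 (log2 -0.92, adjusted p = 4.7e-06). UGT2B15, which conjugates androgens for excretion and was the only UGT2B gene of 7 to reach 1 FPKM, was at 1.28, 1.37 and 1.15 FPKM against 0.0941, 0.0605 and 0.103 (log2 -2.88, adjusted p = 5.0e-04). UGT2B15 was kept only through its 2-day mean, so its call rests in part on the filter. Its 7-day levels lie near the 0.1 added before the logarithm. From its counts of 27, 33 and 32 against 8, 6 and 4 edgeR gave -4.01.

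Neuroendocrine markers rested on few genes: of 24 listed 6 were kept, 2 were called higher and none lower, at a median of 0.89. BEX2, a small adaptor protein gene, was at 25.7, 27.6 and 28.5 FPKM at 2 days and 54.3, 55.5 and 62.1 at 7 days, and CALCA, for calcitonin and CGRP, was low in both groups at 0.587, 0.522 and 0.102 against 1.81, 1.77 and 2.88. CALCA was kept only through its 7-day mean, so its call and the median of 0.89 rest in part on the filter. Basal markers were at low levels, with a summed 12 to 12.4 FPKM at 2 days and 16.1 to 18.5 at 7 days. KRT14, a basal keratin that was likewise kept only through its 7-day mean, went from 0.127, 0.0901 and 0.0883 FPKM to 1.59, 1.45 and 1.63. KRT5, TP63 and IL6 stayed at 0 in all 6. Summed levels of the stromal list were 2.5 to 2.78 FPKM at 2 days and 1.87 to 2.47 at 7 days, and of the immune list 6.54 to 7.13 and 6.31 to 7.40, of which CD68 made up 6.22 or more.

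ATF4 targets were higher at 7 days in nearly every member. Of 51 genes 12 were called higher and none lower, 47 had an adjusted p under 0.05 as higher, and the median log2 difference was 0.53. SLC6A9, a glycine transporter, was at 14.5, 13.5 and 13.5 FPKM at 2 days and 46.8, 47.2 and 52.0 at 7 days, over 3 times the 2-day values in each culture (log2 1.81 ± 0.06, adjusted p = 1.6e-06). CBS, which makes cystathionine from homocysteine, was at 6.19, 4.83 and 5.53 FPKM against 16.9, 20.8 and 20.1. DDIT3, the stress transcription factor CHOP, was at 16.9, 15.6 and 18.6 FPKM against 45.5, 51.2 and 57.3. SLC7A11, the cystine importer, rose from 32.1, 27.9 and 30.5 FPKM to 67.5, 77.2 and 78.1, and STC2, a secreted glycoprotein, from 25.6, 26.8 and 25.5 to 75, 78.3 and 82.7.

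ASNS, asparagine synthetase, is a textbook target of ATF4 and was at 134, 139 and 129 FPKM at 2 days and 170, 197 and 196 at 7 days (log2 0.48 ± 0.06, adjusted p = 3.3e-04). The groups did not overlap, but the difference was under 2-fold. Its promoter is shown for the composite C/EBP and ATF4 element, searched as TGATGNAA on both strands and in capitals below. The element began 68 bases before the start. These letters were in 6 (15.8%) of the 38 promoters of the ATF4 list that the table held and in 3.2% of all promoters.
ASNS, minus strand, chr7:97872409-97872658 (GRCh38.p14): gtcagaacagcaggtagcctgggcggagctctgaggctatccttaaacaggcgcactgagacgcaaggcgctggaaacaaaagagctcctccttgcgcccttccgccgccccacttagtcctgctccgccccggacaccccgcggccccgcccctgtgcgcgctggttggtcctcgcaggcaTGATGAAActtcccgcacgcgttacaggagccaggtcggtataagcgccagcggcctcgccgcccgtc

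Genes of the unfolded protein response moved the same way. Of 31 genes 3 were called higher and none lower, 27 had an adjusted p under 0.05 as higher, and the median was 0.46. ERN1, the ER stress sensor IRE1, was at 5.58, 3.79 and 5.91 FPKM at 2 days and 14.5, 16.3 and 16.8 at 7 days, and HERPUD1, an ER-associated degradation factor, at 82.2, 87.2 and 81.0 against 177, 182 and 177. DNAJB9, an ER co-chaperone, had a log2 difference of 1.32. The 3 genes showed no overlap between days. Heat shock proteins of the cytosol and mitochondria went the other way, with none of 24 genes called higher, 4 called lower and a median of -0.67. HSP90AA1, the inducible HSP90, was at 451, 480 and 439 FPKM against 215, 225 and 225, and HSPE1, the mitochondrial co-chaperonin, at 40.0, 43.0 and 42.4 against 17.4, 16 and 16.3.

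Glycolysis genes were mostly lower: of 37 genes on the glycolysis and hypoxia list 5 were called lower and 2 higher, 23 had an adjusted p under 0.05 as lower, and the median was -0.45. LDHA, which makes lactate, was at 310, 339 and 352 FPKM at 2 days and 119, 106 and 112 at 7 days, and CA12, a membrane carbonic anhydrase, at 10.4, 12.8 and 10.9 against 4.96, 4.31 and 4.30. The 2 called higher were VEGFA, the angiogenic growth factor, at 31.4, 32.3 and 34.7 FPKM against 95.7, 102 and 122, and STC2, given above. Subunits of the respiratory chain encoded in the nucleus were slightly lower, with 2 of 76 called lower, 63 lower at an adjusted p under 0.05 and a median of -0.41. NDUFB3, a complex I subunit, was the example at 54.0, 54.7 and 49.9 FPKM against 22.5, 28.1 and 23.5 (log2 -1.1, and -0.98 from the counts, which is under 2-fold). Neither the 78 cytosolic ribosomal proteins (median -0.21) nor the 31 proteasome genes (median -0.29) had a called gene.

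Among smaller lists, 3 of 18 genes for drug and ion transporters were called higher and none lower (median 0.55). Of these, ABCC5 (log2 1.04) fell short of the 2-fold limit without VEH_2d replicate 2. Without rescaling both ABCC5 (0.96) and ABCC4 (0.99) fell short, as did ABCC5 with a pseudocount of 1 (0.92). SLC30A4, a zinc exporter, was at 17.1, 16.8 and 18.9 FPKM at 2 days and 57.9, 62.2 and 60.2 at 7 days, and ABCC4, an androgen-regulated drug exporter, at 43.6, 42.6 and 47.8 against 92.3, 91.9 and 95.8. The list for extracellular matrix and TGF-beta was split, with 3 of 18 called higher and 4 lower (median 0.32). COL6A2 and LTBP4, a collagen VI chain and a latent TGF-beta binding protein, rose, LTBP4 from 11.1, 10.9 and 11 FPKM to 30.9, 30.1 and 31.1. ID1 and ID3, BMP-responsive inhibitors of differentiation factors, were among the genes with the largest decreases: ID1 was at 10.8, 12.1 and 12.5 FPKM against 1.21, 0.776 and 1.98 (log2 -3.15 ± 0.27, adjusted p = 3.5e-05), and ID3 at 14.5, 17.5 and 19.0 against 2.79, 1.62 and 1.5. Each 2-day library was above 5 times each 7-day library for both.

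Clock genes had 3 of 19 called higher and 1 lower (median 0.28), and PER2, a repressor of the clock, was at 2.42, 1.93 and 2.44 FPKM against 5.56, 6.39 and 6.62. Cholesterol synthesis (1 of 24 called higher, TM7SF2, median 0.27), fatty acid synthesis (1 higher, AGPAT2, and 1 lower, ELOVL6, of 21), interferon-stimulated genes (1 higher and 1 lower of 16), NF-kB targets (1 higher of 10, ZC3H12A, log2 1.98), NRF2 and glutathione genes (1 higher, SLC7A11, and 1 lower, NQO1, of 24) and lysosome genes (1 higher of 41, GAA) were near the background share of 6.14% and 3.48%. Immediate early genes had 2 of 23 called lower, DUSP4 (log2 -1.21) and IER5 (log2 -1.34). YAP and TEAD targets had 2 of 12 called higher and MHC class I genes none of 10. MYC and ribosome biogenesis genes had 1 of 36 called lower (NME1, log2 -1.07, and -0.81 from the counts). At any fold, 24 of these 36 were lower at an adjusted p under 0.05 and 5 higher (median -0.28). Cell adhesion genes had 1 of 30 called higher (LAMA5, log2 1.06, but 0.94 from the counts and 0.95 without VEH_2d replicate 2). By the adjusted p alone 18 of these 30 were higher and none lower (median 0.40). Of all genes 3757 were higher and 3490 lower by that measure. MALAT1, a nuclear long non-coding RNA, was at 74.3, 94.6 and 70.1 FPKM against 207, 290 and 221, while RN7SL1, the RNA of the signal recognition particle, was at 537, 581 and 572 against 168, 222 and 123. The snoRNA host genes had 1 of 20 called higher, EPB41L4A-AS1, at a median of 0.49.

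The 10 largest increases by the naming rule were short RNAs and genes with near copies, and both kinds rested on weak ground. MIR141 and MIR548AR, loci of microRNA precursors, had no read in any 2-day library and 9, 11 and 8 and 5, 8 and 7 reads in the 7-day libraries, which were sequenced more deeply, so no fold is given. MIR4467 had 0, 0 and 0 reads against 10, 11 and 10 in the count tables, whereas the FPKM table held 2.34 for it in VEH_2d replicate 2. For MIR631, MIR1914, SNORD38A and SNORD95 no library had more than 30 reads. On the lower side MIR6087 had 2, 4 and 1 reads at 2 days and none at 7 days. Reads on such loci in a library of messenger RNA do not measure the mature RNA.

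NACA2, PABPC3 and MIR6723 had FPKM differences of 4.55, 4.02 and 4.48 on the log2 scale but differences of -0.05, -0.18 and -0.21 from the counts. PABPC3, an intronless copy of a poly(A)-binding protein gene, was at 0.511, 1.21 and 0.832 FPKM at 2 days, while its counts of 138, 241 and 232 were not small beside 632, 776 and 328 at 7 days. To turn 2-day FPKM back into reads, gene lengths came from the 7-day values. Library totals were set to bring low values closest to whole read numbers. At least 99.92% of the low values were then whole within 0.05, a share that this choice favoured. The reads behind the 2-day FPKM summed to 3788833, 5380997 and 5485537, against 3239346, 4505203 and 4537038 deposited counts, so the tables differed throughout. In 25 genes the reads behind the 2-day FPKM were under 0.5 of the counts, relative to the median gene, and in 11 over 2. The median log2 difference of the 25 was 2.16 from FPKM and -0.06 from the counts. Of the 25, 22 were called higher, and edgeR called 4 of the 22 from the counts. Since 2-day FPKM entered that ratio, this is a description of the tables and not a test.

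**Figure D3:**
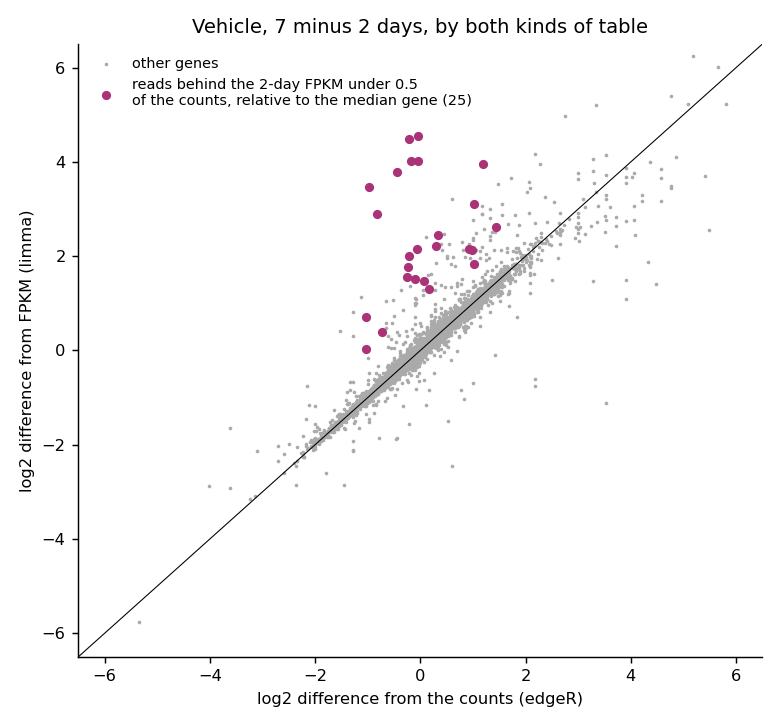
Log2 difference of 7 minus 2 days in vehicle libraries from FPKM with limma (vertical axis) against that from counts with edgeR (horizontal axis), 1 point per gene, with the line of equality. Purple points, the 25 genes with reads behind their 2-day FPKM under 0.5 of the counts relative to the median gene, lie above the line and the other genes mostly along it.

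From the counts, edgeR called 593 of the 729 higher genes and 379 of the 413 lower genes in the same direction, and 14 called genes had the opposite sign. Protein-coding genes whose 2 tables matched to within 2-fold were therefore listed by size of increase, a list drawn up after the values had been seen. PRSS1, the trypsinogen 1 gene, was at 1.27, 1.17 and 1.15 FPKM at 2 days and 15.7, 18.2 and 23.6 at 7 days (log2 3.87 ± 0.14, adjusted p = 1.8e-06), with reads that trypsinogen copies could share. COL16A1, a minor fibril-associated collagen, was at 0.816, 0.264 and 0.388 FPKM against 4.55, 6.08 and 6.07. COL16A1 was kept only through its 7-day mean, so its place on this list rests in part on the filter. S100P, a calcium-binding protein found in many carcinomas, was the most abundant of them at 37.4, 38.4 and 42.5 FPKM against 155, 176 and 182. The 7-day values of these genes were all above 3 times the highest 2-day value.

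Others of that list were PABPC1L (8.85, 12.6 and 11.4 FPKM at 2 days, 42.8, 56.4 and 57.6 at 7 days), the lysosomal enzyme IDUA (4.39, 4.72 and 4.23 against 20.4, 22.7 and 22.5), the secreted semaphorin SEMA3B (2.40, 2.49 and 2.10 against 10.9, 11.3 and 10.8) and its receptor family member NRP1, or neuropilin 1 (3.68, 3.36 and 4.05 against 14.3, 15.8 and 16.4). BEST1, a calcium-activated chloride channel, had a log2 difference of 2.03. Among the 10 largest decreases of genes at 5 FPKM or more in a group were also TMSB15A, a beta-thymosin that binds actin (11.2, 11.1 and 9.11 FPKM against 2.55, 1.78 and 0.523), and NPPC, the C-type natriuretic peptide (6.5, 7.36 and 7.21 against 1.59, 1.36 and 0.993). SHCBP1, a midbody protein, had a log2 difference of -2.27. SNHG25 had one of -2.45 from FPKM and 0.60 from its counts, which were at most 9 in a library.

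The libraries of VIC-1911 were split by day and table in the same way and share no library with the vehicle groups. Between VIC_2d and VIC_7d 258 genes were called higher (2.17%) and 41 lower (0.346%), and the difference between the 2 comparisons had an adjusted p under 0.05 in 32.1% of genes. Of the 413 genes lower in vehicle, 15 (3.6%) were called lower in VIC-1911, 365 had a difference between the comparisons at an adjusted p under 0.05, and the medians were -1.37 in vehicle and -0.25 in VIC-1911. Of the 729 genes higher in vehicle, 187 (25.7%) were called higher in VIC-1911, 358 had such a difference, and the medians were 1.32 and 0.74. Vehicle alone chose both sets, so medians nearer 0 in VIC-1911 follow in part from the choice.

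Lists made by function also differed. The mitosis list had a median of -1.76 in vehicle and -0.18 in VIC-1911, none of its genes was called in VIC-1911, and all 66 differed between the comparisons at an adjusted p under 0.05. Levels of VIC-1911 libraries were rescaled among themselves and apart from vehicle, which limits how closely levels can be set side by side. CDK1 in VIC-1911 was at 55.7, 58.1 and 59.8 FPKM at 2 days and 39.2, 39.2 and 42.4 at 7 days, above every 7-day vehicle culture. The replication list had medians of -1.27 and -0.10, with 56 of 57 genes different. The ATF4 list had medians of 0.53 and -0.52, with 49 of 51 genes different and 7 called lower in VIC-1911. ASNS in VIC-1911 was at 66.1, 67.2 and 79.7 FPKM at 2 days and 26, 26.7 and 27 at 7 days, below vehicle on both days. MALAT1 (1.58 in vehicle, 1.35 in VIC-1911, adjusted p of the difference 0.338) and the ribosomal proteins (medians -0.21 and -0.24, 8 of 78 different) stood closer together, and MALAT1 was higher at 7 days in both.

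**Figure D4:**
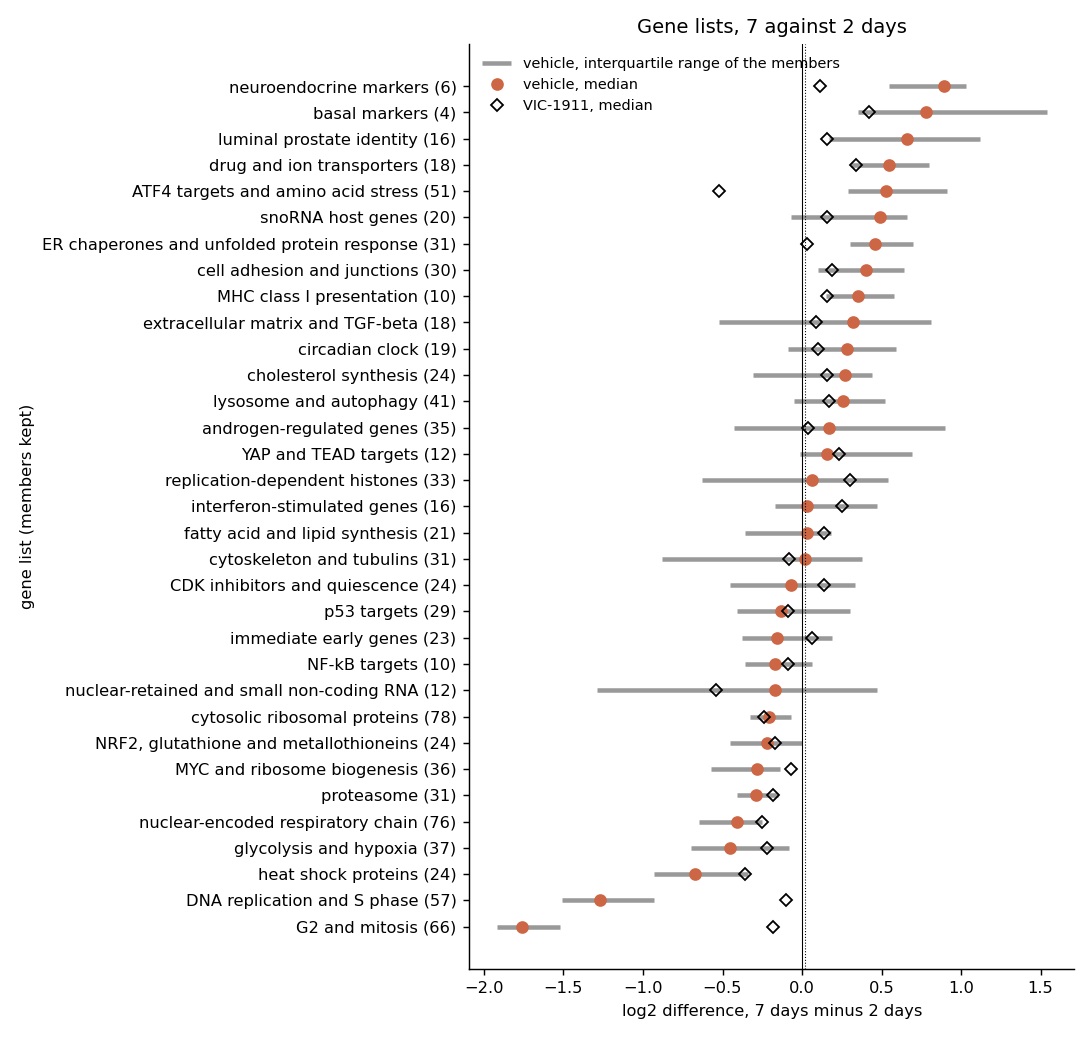
Median log2 difference of 7 minus 2 days for each gene list with at least 4 genes kept, in vehicle (orange, with a grey bar over the interquartile range of the members) and in VIC-1911 (open diamonds), with solid and dotted lines at 0 and at the vehicle median of all genes (0.02). The vehicle medians run from -1.76 for mitosis to 0.89 for neuroendocrine markers, and the VIC-1911 medians of the mitosis, replication and ATF4 lists are -0.18, -0.10 and -0.52. CALCA among the neuroendocrine and KRT14 among the basal markers were kept only through their 7-day means.

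Base composition moved with the day. Genes were put in 5 groups of equal size by the GC content of the transcript, and the median log2 difference was -0.17, -0.11, 0.02, 0.11 and 0.28 from the group of lowest GC to that of highest. Within these groups the mitosis list had medians of -1.74, -1.81, -1.66, -1.80 and -1.13, the last from 2 genes, and the ATF4 list 0.55, 0.30, 0.76, 0.50 and 0.77. Some of these medians rest on few genes, as the ATF4 median of the lowest GC group does on 4. By gene length, the group medians of all genes ran from -0.06 to 0.17, the latter in the longest genes. The respiratory chain list went from -0.63 in the group of lowest GC to -0.10 in that of highest and the heat shock list from -0.98 to -0.24. The part of GC content or gene length in the results of any list was not tested. The 237 pseudogenes not tested had a median of 0.72, with 87 at least 2-fold higher and 4 at least 2-fold lower at 7 days.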

How the data were processed

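RNA of C4-2B cultures was sequenced paired-end. The kits differ between the labels (RNeasy Plus Mini, then NEBNext Ultra) and the methods (NucleoSpin, then NEBNext Ultra II). The authors trimmed reads with Trimmomatic and aligned them to GRCh38 with STAR (2.6.0 in the submitters' processing notes); the strand setting and the treatment of reads with several matches are not given in the sources used here. The authors deposited gene counts without normalization and FPKM values from an in-house script, in one table of each kind per time point.

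Deposited FPKM values were rescaled across all 6 vehicle libraries by the median of ratios over 10672 genes at 1 FPKM or more in each library, which joins tables that had been normalized separately. limma 3.58.1 (R 4.3.3) was fitted with a trend to log2(FPKM + 0.1), p-values were adjusted over 11865 genes by the Benjamini-Hochberg method, with calls at an adjusted p under 0.05 and a fold of 2 or more. The VIC-1911 libraries were rescaled among themselves, and for the difference between the 2 comparisons all 12 libraries were rescaled together. Both were fitted likewise. Whether same-numbered cultures are related is not stated, so p-values measure the spread between these libraries, which may be technical. The deposited counts went into edgeR 4.0.16 and DESeq2 1.42.0 as alternatives, on the 11856 kept genes counted in both tables. Depths of 3245273 to 17538796 counts set the precision, and loci with few reads are named with their counts. Code was tested on simulated data.

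Genes, groups and 38 lists were chosen with earlier results of these data known. Named genes are the 10 called genes with the largest increase and the 10 with the largest decrease at 5 FPKM or more in a group without overlap, up to 4 called members of each list (or the 2 most abundant where none was called), and 13 fixed genes, of which KLK3, MKI67, CDKN1A, CDKN1B, AURKA, PARP1, MALAT1, TXNIP, ASNS, GAPDH and ACTB are given and the others are not reported here. The 15 protein-coding genes with the largest increase and matching tables, BUB3, CDC25C, CKAP2, CCNB2, PLK1, POLE, FKBP5, CALCA and KRT14 were added after their values had been seen. Biotypes, coordinates and promoters are those of RefSeq. Of the 11865 genes, 182 had no RefSeq match.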

Additional observations from a re-analysis of the deposited data

Results flagged for a closer look

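In 52 of the 116 named genes the 7-day less 2-day difference itself differed by at least 2-fold between VIC-1911 and vehicle, with an adjusted p under 0.05 by limma on 12 libraries. At any fold 88 of the 116 did. Among all 11865 genes 4.31% differed by at least 2-fold. Most of the 116 were named for a large or called difference in vehicle, which favours a difference from VIC-1911, so the 2 shares cannot be set against each other. Values are VIC-1911 less vehicle (log2).

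It was positive in 23, most of them genes of the cell cycle that fell in vehicle. In mitosis it was 2.06 for CDK1 (adjusted p = 3.7e-07), 2.01 for PTTG1, 1.98 for CCNA2, 1.80 for SHCBP1, 1.79 for HMMR, 1.68 for MKI67 and 1.61 for AURKA. Replication and histone genes gave 1.90 for MCM10, 1.69 for RRM2, 1.63 for GINS1, 1.37 for PCNA, 1.83 for HIST1H2BJ and 1.31 for HIST1H1C. Tubulins gave 1.59 for TUBA1B, 1.21 for TUBB, 1.17 for TUBA4A and 1.12 for TUBG1. The others were TMSB15A at 2.63, ID3 at 1.39, IER5 at 1.38, NPPC at 1.29 and CA12 at 1.08, and MIR6087 at 4.77 on at most 4 reads in a vehicle library.

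It was negative in 29. Stress genes gave -2.39 for SLC7A11 (adjusted p = 2.0e-07), -2.18 for SLC6A9, -2.12 for DDIT3, -2.01 for STC2, -1.91 for ASNS, -1.68 for SESN2, -1.68 for VEGFA, -1.5 for DNAJB9, -1.43 for ERN1, -1.41 for HERPUD1, -1.01 for CBS and -1.01 for GDF15. The genes with the largest increases gave -4.81 for PRSS1 (adjusted p = 6.2e-06), -4.13 for S100P, -3.29 for BEST1, -2.60 for COL16A1, -1.38 for PABPC1L, -1.34 for VSTM2L, -1.30 for C11orf85 (now MAJIN), -1.18 for LRRN1, -1.18 for NRP1 and -1.0 for SEMA3B. STEAP2 was at -1.18, BEX2 at -1.41, SLC30A4 at -1.19, ZC3H12A at -1.19 and ISG20 at -1.04. The fitted values of -4.03 and -2.03 for the loci MIR548AR and MIR141 rest on few reads and on 2-day vehicle libraries listed at 0, so they depend on the 0.1 added and measure no size. PRSS1 was below 0.6 FPKM in all 6 VIC-1911 libraries. The part of the drug, of days in culture and of the 2 sets of libraries in these values was not tested.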

How the results depend on the processing

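The 729 higher and 413 lower calls became 398 higher with a pseudocount of 1, 359 higher with a mean of at least 5 FPKM and 483 higher with at least 1 FPKM in both groups, which left the lower calls within 1.5 times, and 1794 higher and 1207 lower at a fold limit of 1.5. Scalings gave 611 to 834 higher and 358 to 483 lower and a median of all genes within 0.07 of the main one; edgeR on counts called 646 and 427 and DESeq2 608 and 425. Without one library the counts were 668 to 745 higher and 396 to 443 lower, and 523 and 338 genes were called in all 6 of these fits. From the counts, edgeR and DESeq2 reversed MIR6723 (-0.21 and -0.21), NACA2 (-0.05 and -0.03), PABPC3 (-0.18 and -0.17) and SNHG25 (0.60 and 0.64), all genes whose 2-day tables differ. Leaving out 1 library ended the call of SNORD95 (the log2 fold change of SNORD95 was 3.71 without VEH_7d replicate 3, 4.39 to 4.56 without VEH_2d replicate 2 or VEH_7d replicate 1 or 2, and, still called, 2.25 and 5.67 without VEH_2d replicate 1 and 3), CDKN1A (-0.97 and -0.99), GADD45A (the log2 fold change of GADD45A was 0.98 without VEH_7d replicate 3), HIST1H2AK (the log2 fold change of HIST1H2AK was 0.96 without VEH_2d replicate 3) and, both without VEH_2d replicate 2, LAMA5 (0.95) and ABCC5 (just under 2-fold). Having no filter on FPKM ended those of MIR4467, MIR631, MIR1914, HIST1H2AK, SNORD38A and SNORD95. The counts ended those of LAMA5, NDUFB3 and NME1 by edgeR and DESeq2 and that of SNORD38A by DESeq2. No rescaling ended the calls of 4 named genes, ABCC4 and ABCC5 among them. Scaling by the sum ended those of 3 and by the upper quartile that of 1. A pseudocount of 1 ended those of 2 and one of 0.01 that of 1. The replicate block gave 741 higher and 413 lower calls. Deviations of same-numbered cultures from their group means had r of -0.0631, -0.0233 and -0.00381. With 3 libraries per group such values cannot settle whether numbers pair the cultures. Of 2074 values of 116 named genes, 34 fell short of a call they had and 8 reversed. Only 106 of the 116 were kept when both groups needed a mean of at least 1 FPKM. Depth limits what can be said of the short RNA loci.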
